A study of Mus musculus with 18 samples.

Results

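The low oxygen response of macrophages lacking PHD3 was read from 6 of the 18 samples of the series, 3 labelled knockout at oxygen 1 and 3 labelled knockout at oxygen 20, all with control feeding. The labels alone, and no measured value, decide which samples these are. PHD3-/- and wild-type mice were male C57BL/6J mice of 8 weeks; marrow flushed from the femur was grown for 7 days with macrophage colony stimulating factor, which turns marrow cells into macrophages. The oxygen label carries no unit, the sources used here do not say how long the cells spent at oxygen 1, and they do not describe which part of Egln3 is deleted. The 3 wild-type samples at oxygen 1 and the 3 at oxygen 20 with control feeding, of the same strain, sex, age and culture, served for comparison, and the 6 starved samples entered only the shared estimate of the spread. The design text names 3 mice per group; whether a mouse gave cells to several groups is not given, and if it did, the p-values treat related samples as independent.

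PHD3 is the product of Egln3 and belongs to the prolyl hydroxylases that use oxygen to mark hypoxia-inducible factor (HIF) on its alpha subunits. Marked subunits are bound by the VHL protein and degraded. When oxygen is scarce the subunits last, pair with ARNT and bind short DNA elements with the core letters ACGTG or GCGTG, and the genes they switch on include glucose transporters, glycolytic enzymes, Vegfa and the hydroxylases themselves. Macrophages work in poorly oxygenated wounds, infected tissue and tumours, and HIF is known there for driving glycolysis, arginine metabolism and interleukin-1 beta.

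The values are log2 signals of single-colour arrays minus the 75th percentile of the array, so that 0 is the 75th percentile and each step of 1 is a factor of 2. Across the 8 knockout arrays of these groups, 56.1% to 65.4% of spots were well above background, no spot was saturated, the local background had medians of 20 to 24, and the 75th percentile of the signal ranged from 974 to 1321. A single sample in each knockout group was hybridised on a pair of arrays, which correlated across genes at r = 0.991 (oxygen 1) and r = 0.996 (oxygen 20) and were averaged. Replicate 3 of the knockout samples at oxygen 20 lay farthest from its group mean (root mean square deviation 0.321, against 0.223 to 0.273 in the other 5). All 15 macrophage markers found on the array were well above background in all 6 samples. So were 9 of 10 osteoclast markers and 10 of 14 neutrophil markers, so detection alone does not tell these cell types apart. These are bulk samples, in which fewer cells of a kind and less RNA per cell cannot be told apart.

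Low oxygen reached a large part of the measured transcriptome. Of 20569 genes tested, 8269 (40.2%) passed a limma adjusted p of 0.05, 4451 of them higher (21.6%) and 3818 lower (18.6%) at oxygen 1, and 2726 of the called genes (13.3% of those tested) differed at least 2-fold. For 10146 genes (49.3%) the 2 groups were fully apart. Counts of gene lists below are to be read against that 40.2%. Without replicate 3 at oxygen 20, 4317 genes were higher and 3824 lower. Both groups shared 3 slides, and within these slides 99.4%, 99.1% and 98.6% of the called genes had the sign of the fit. The genes were chosen by a fit to these same arrays, so this was largely set in advance and is no separate check.

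The promoters of 4 of the strongest risers are shown because they hold the core letters of the HIF element. These are the 250 bases before the first listed start of each gene from RefSeq on GRCm38.p6, written 5′ to 3′ on the gene's strand. Capitals mark ACGTG or GCGTG and their reverse complements CACGT and CACGC. Egln3 lies at chr12:54203875-54204124 on the minus strand, Ak4 at chr4:101419039-101419288 on the plus strand, Ankrd37 at chr8:45999851-46000100 on the minus strand and Prr15 at chr6:54326651-54326900 on the plus strand.
Egln3: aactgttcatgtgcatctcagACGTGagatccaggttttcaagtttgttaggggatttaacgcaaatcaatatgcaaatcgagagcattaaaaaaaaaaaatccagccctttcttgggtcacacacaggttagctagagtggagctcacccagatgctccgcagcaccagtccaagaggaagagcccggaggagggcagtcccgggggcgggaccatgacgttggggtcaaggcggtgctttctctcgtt
Ak4: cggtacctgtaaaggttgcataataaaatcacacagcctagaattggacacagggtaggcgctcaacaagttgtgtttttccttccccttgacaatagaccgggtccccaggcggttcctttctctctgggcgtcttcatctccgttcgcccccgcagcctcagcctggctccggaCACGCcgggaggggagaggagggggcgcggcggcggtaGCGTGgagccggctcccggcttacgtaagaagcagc
Ankrd37: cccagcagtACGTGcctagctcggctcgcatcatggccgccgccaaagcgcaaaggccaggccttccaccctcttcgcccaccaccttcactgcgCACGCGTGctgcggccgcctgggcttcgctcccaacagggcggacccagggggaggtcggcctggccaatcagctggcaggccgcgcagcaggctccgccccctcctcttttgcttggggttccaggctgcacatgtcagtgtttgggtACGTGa
Prr15: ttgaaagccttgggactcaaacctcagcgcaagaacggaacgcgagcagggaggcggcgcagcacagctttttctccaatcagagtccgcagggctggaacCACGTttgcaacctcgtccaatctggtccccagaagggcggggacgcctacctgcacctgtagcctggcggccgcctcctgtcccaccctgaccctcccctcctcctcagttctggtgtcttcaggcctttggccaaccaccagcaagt
The Ankrd37 stretch held 4 matches, the nearest starting 6 bases before the listed start. The Ak4 stretch held 2, and the Egln3 and Prr15 stretches 1 each. These letters are common: they stood on either strand in 38.6% of 27025 promoters of the table, in 53.4% of 11132 tested genes with an entry, in 56.1% of the 2490 that rose and in 55.5% of the 2416 that fell. Of the 275 genes that rose at least 4-fold, 130 (47.3%) held a match. ACGTG also lies within the E-box CACGTG that other factors bind, so a match is a description of the letters only. F13a1, another strong riser, had no match in its window.

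Egln3 was itself the largest rise among genes well above background in all 6 knockout samples. Its brighter probe read -3.88, -3.76 and -4.20 in the samples at oxygen 20 and 2.84, 2.98 and 2.71 at oxygen 1. All samples at oxygen 1 lay far above all controls. The log2 change was 6.79 ± 0.16 (SE of the fit), or 111-fold (limma adjusted p = 3.22e-13), against 6.36 in wild-type cells. The sources used here do not place the probes relative to the deleted part, so this transcript signal neither checks the genotype nor shows a working protein.

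The other large measured rises were of genes with varied roles. Ak4, a mitochondrial adenylate kinase, read -2.83, -2.67 and -2.42 at oxygen 20 and 3.69, 4.25 and 3.85 at oxygen 1, a 94.9-fold rise. F13a1, a transglutaminase subunit that crosslinks fibrin, read -5.19, -4.64 and -5.88 and then 0.58, 1.22 and 0.70, a 67.1-fold rise. No sample of either gene at oxygen 1 came near the controls, although the controls of F13a1 spread more. Ankrd37, an ankyrin repeat protein and known HIF target, rose 65.1-fold, Prr15 49.2-fold, the co-repressor Rcor2 47.5-fold, Rgcc, a regulator of the cell cycle, 47.1-fold, Rgs11, which shortens G protein signals, 32.1-fold and Prelid2, a lipid transfer protein, 28.8-fold. Ero1a, which oxidises proteins in the endoplasmic reticulum, rose 23.7-fold. Nos2, the inducible nitric oxide synthase, read -0.44, -0.19 and -0.71 at oxygen 20 and 4.03, 3.99 and 4.17 at oxygen 1, a 22.8-fold rise (limma adjusted p = 1.1e-08). Its samples at oxygen 1 lay within a narrow band well above the controls.

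**Figure D1:**
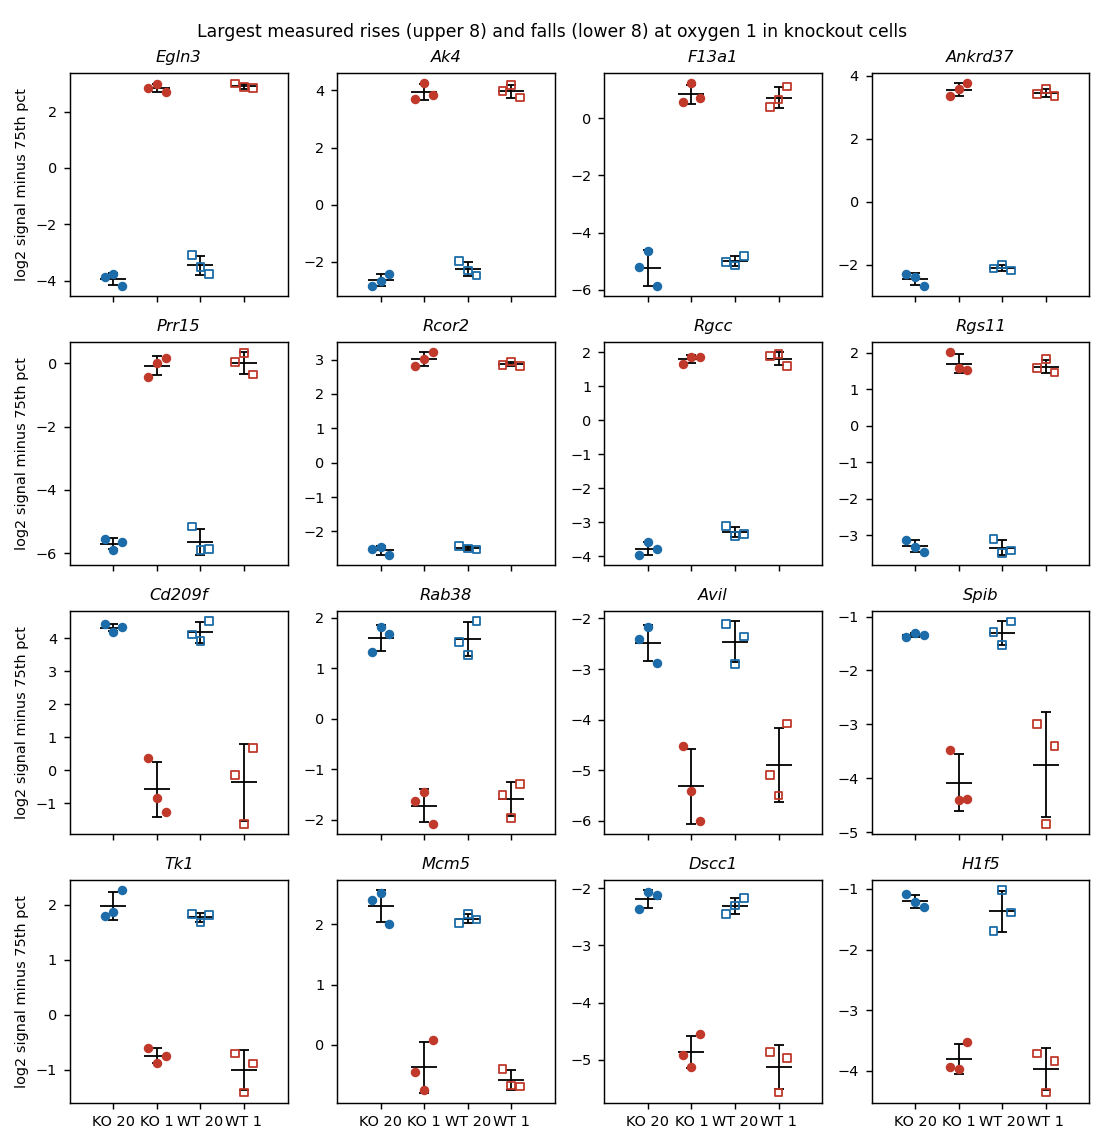
Log2 signal minus the 75th percentile of the array for 8 of the largest rises and 8 of the largest falls, with 3 samples a group (circles knockout, squares wild type; blue oxygen 20, red oxygen 1) and the mean with its SD as a black bar. In every panel the 3 knockout samples at oxygen 1 sit apart from the 3 at oxygen 20, which the rule that chose these genes required and which held for 49.3% of all genes tested. The wild-type samples take similar places.

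Some genes went from below background to clear expression, and for these the change is given as a bound against the lowest signal well above background on each array. Arg1, arginase 1, which draws on the same arginine as Nos2, was not well above background in any control and read 1.59, 1.28 and 1.28 at oxygen 1, at least 212-fold higher. Ppp1r3g and Ppp1r3c, which bring protein phosphatase 1 to glycogen, were at least 48.0-fold and 13.8-fold higher. The death-associated kinase Dapk2 was at least 21.1-fold higher, the collagen galactosyltransferase Colgalt2 at least 17.4-fold and Skint3 at least 16.6-fold. In the other direction Ngp, a neutrophil granule protein, was at least 10.1-fold lower, Omg, a myelin glycoprotein, at least 8.17-fold, the scavenger receptor Stab2 at least 5.39-fold, Inka2 at least 5.37-fold, Vcam1, which tethers leukocytes, at least 3.63-fold and Cenpm, a part of the centromere, at least 3.60-fold.

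Among falls measured in every sample, Cd209f, a C-type lectin, stood first. It read 4.43, 4.19 and 4.34 at oxygen 20 and 0.35, -0.84 and -1.26 at oxygen 1, a log2 change of -4.90 ± 0.46 (SE) or 29.9-fold lower (limma adjusted p = 9.71e-07). The controls were tight and the samples at oxygen 1 were spread, with replicate 1 highest. Rab38, a GTPase that steers cargo to pigment granules and kindred organelles, read 1.33, 1.83 and 1.67 and then -1.64, -1.45 and -2.08, 10.1-fold lower. The actin-binding proteins Avil and Lima1 were 7.12-fold and 5.87-fold lower, and the transcription factor Spib 6.71-fold. Of the 12 largest measured falls, Tk1, Mcm5, Dscc1, H1f5, Pimreg and Ankle1 belong to dividing cells or to chromosome maintenance and were 5.67-fold to 6.60-fold lower. Ltf, lactoferrin, a granule protein of neutrophils, was 6.01-fold lower.

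The oxygen-sensing pathway itself changed in some of its parts. Of 13 tested members 5 rose and 1 fell (46.2% called; median log2 change 0.35, against 0.030 over all genes). Among the hydroxylases Egln1, which encodes PHD2, read -3.21, -3.29 and -3.69 at oxygen 20 and -0.74, -1.45 and -1.15 at oxygen 1, a 4.86-fold rise. Egln2, which encodes PHD1, read 5.48, 5.38 and 5.56 and then 5.01, 4.66 and 4.65, a fall of 1.63-fold. The hydroxylase genes thus moved in opposite directions, with no overlap between groups for Egln1 or Egln2. Vhl, which recognises hydroxylated HIF, rose 3.70-fold. Of the HIF subunits, Hif3a rose by 0.53 on the log2 scale (limma adjusted p = 0.0187), a call that was lost when replicate 3 at oxygen 1, or control replicate 1 or 2, was left out (adjusted p between 0.0582 and 0.0911). Hif1a showed a log2 change of 0.20 ± 0.25 (SE) and Arnt of 0.35, neither past the threshold. The probes of Epas1 disagreed: the brighter gave 0.23 and did not pass, and the dimmer gave 0.95 (limma adjusted p = 0.00186).

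Glucose use was the list with the highest median. Of 33 glycolysis members 25 rose and 4 fell (87.9% called; median 1.17). Slc2a1, the glucose transporter GLUT1, read 1.84, 1.75 and 2.29 at oxygen 20 and 6.00, 6.27 and 5.94 at oxygen 1, a 17.3-fold rise (limma adjusted p = 1.74e-10). Slc16a3, which exports lactate, read 2.40, 2.22 and 2.67 and then 6.92, 6.72 and 6.88, a 21.2-fold rise. The entry and the exit of the pathway thus moved most, with the groups wide apart at each. Between them, hexokinases Hk1 and Hk2 rose by 2.49 and 2.06 on the log2 scale, Gpi1 by 1.84, the phosphofructokinase genes Pfkl and Pfkp by 2.92 and 2.18, the aldolases Aldoc and Aldoa by 3.51 and 1.09, Tpi1 by 2.16, Pgk1 by 2.11, Pgam1 by 1.58, Eno1 by 1.48 and Pkm by 1.33. Pdk1, a kinase that inhibits pyruvate dehydrogenase, read -0.94, -1.09 and -1.25 and then 2.28, 2.33 and 2.16, a 10.2-fold rise. Ldha, which makes lactate, rose by 1.17 by its brightest probe and by 2.37 and 2.50 by its other tested probes. The 7 probes of Gapdh disagreed: the brightest, which stands for the gene in the counts, gave 0.30 ± 0.23 (SE) and did not pass, while the others rose by 0.97 to 1.43 (limma adjusted p up to 0.00341). The transporter Slc16a1 (0.11 ± 0.34) did not pass. The falls were of Bpgm (-0.76), which diverts a glycolytic intermediate, Pfkfb4 (-0.55), Pfkfb1 (-0.55) and Hk3 (-0.41). The calls of Hk3, Pfkfb1, Pfkm and Pdk2 were each lost without at least 1 replicate (adjusted p up to 0.195 over the settings tried).

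**Figure D2:**
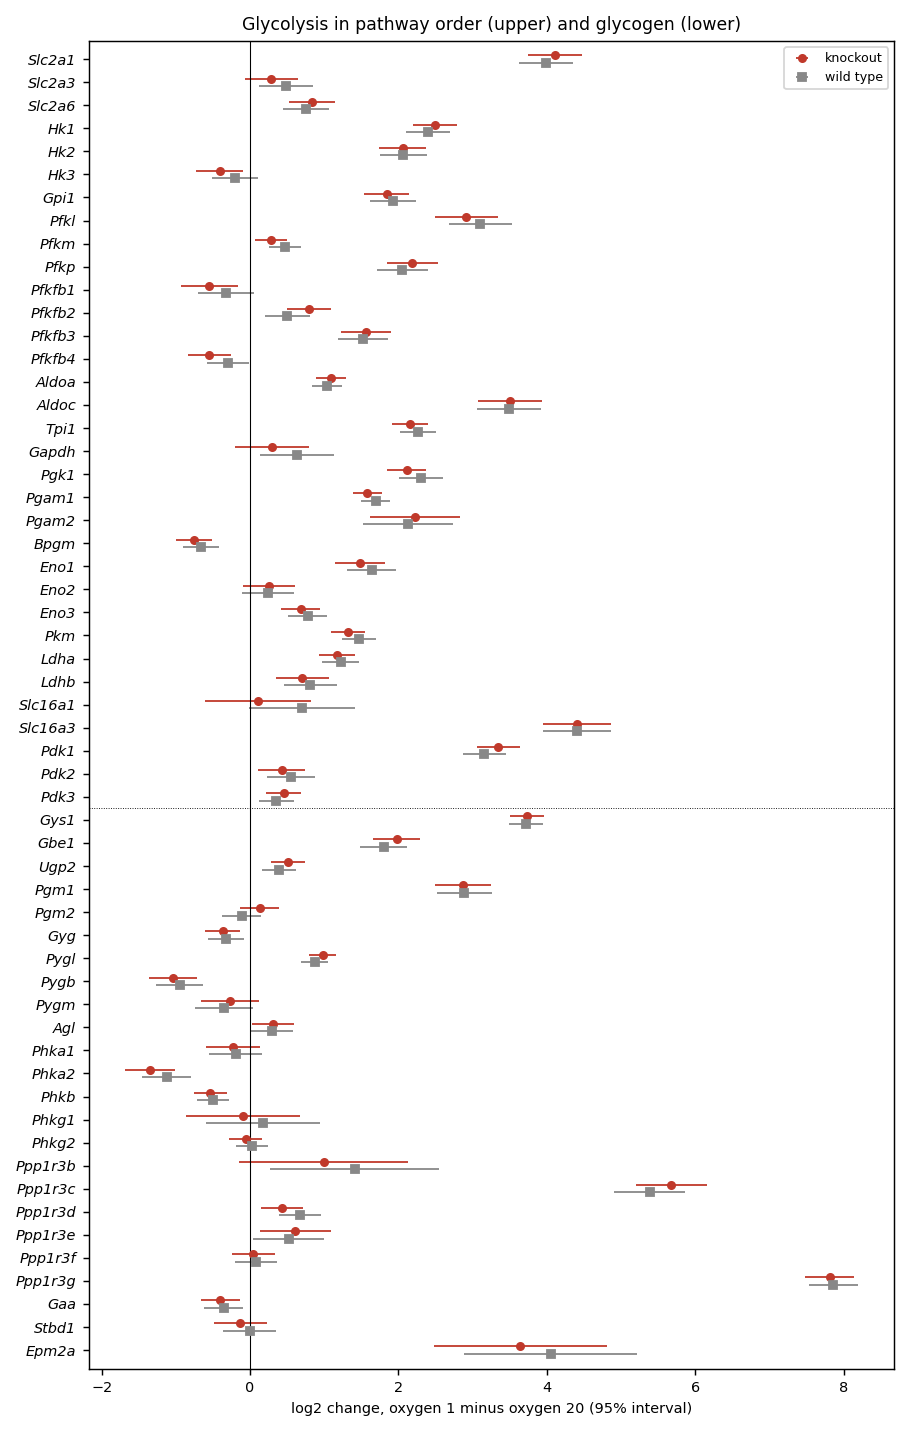
Log2 change at oxygen 1 with its 95% interval for every tested glycolysis gene in pathway order (above the dotted line) and every tested glycogen gene (below it), knockout as red circles and wild type as grey squares. Slc16a3 and Slc2a1 lie above 4 in the knockout while Bpgm lies below 0; for Ppp1r3g, Ppp1r3c and Epm2a the control signal was below background, so their positions depend on dim readings.

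Glycogen genes moved in both directions. Of 24 tested, 10 rose and 5 fell (62.5% called; median 0.22). Gys1, glycogen synthase, read -0.12, -0.31 and -0.41 at oxygen 20 and 3.64, 3.41 and 3.33 at oxygen 1, a 13.3-fold rise. Pgm1, which links glucose phosphates to glycogen, rose 7.30-fold, the branching enzyme Gbe1 3.94-fold and Ugp2 by 0.51 on the log2 scale. Gyg, which primes new glycogen chains, fell by 0.37 on the log2 scale, a call lost without replicate 3 of either group or with the 6 knockout samples fitted alone (limma adjusted p between 0.0584 and 0.0729). Of the phosphorylases that release glucose, Pygl rose 1.98-fold and Pygb was 2.06-fold lower, while Pygm changed by -0.27 and did not pass. Phka2 and Phkb, regulatory subunits of phosphorylase kinase, fell by 1.35 and 0.53 on the log2 scale, and the lysosomal glucosidase Gaa by 0.40, a call lost without replicate 3 at oxygen 1 or replicate 2 of the controls (adjusted p up to 0.0760 over the settings that ended it). None of the 11 tested pentose phosphate genes rose and 6 fell (54.5% called; median -0.32), Prps1 and Prps2, which make activated ribose for nucleotides, by 1.10 and 0.83 on the log2 scale.

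Lists of mitochondrial genes differed in their direction. Of 28 genes of mitochondrial remodelling and mitophagy 13 rose and 4 fell (60.7% called; median 0.37). Bnip3, a receptor that marks mitochondria for removal, read 2.19, 2.11 and 2.35 at oxygen 20 and 7.13, 6.82 and 6.62 at oxygen 1, a 24.9-fold rise, and its relative Bnip3l rose 6.02-fold. Fam162a rose 22.4-fold. The 3 samples of Bnip3 at oxygen 1 all lay far above its controls. Of 31 genes of pyruvate entry and the TCA cycle 12 fell and 1 rose (41.9% called, near the 40.2% of all genes; median -0.25). The riser was Acod1, which makes itaconate, at 2.22-fold, while Pdha1, Idh2, Pdp2 and Mdh1 fell by 0.76, 0.85, 0.98 and 0.63 on the log2 scale. Of 77 mitochondrial ribosomal protein genes 41 fell and 3 rose (57.1% called; median -0.33), against 4 and 8 of 84 cytosolic ones (14.3% called; median 0.18). Of 27 fatty acid oxidation genes 11 fell and 3 rose (51.9% called).

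Lists of other enzymes that use oxygen as a substrate had shares called near the 40.2% of all genes, with some large rises. The collagen prolyl hydroxylases P4ha2 and P4ha1 rose 17.8-fold and 6.93-fold within a list of 15 in which 5 rose and 2 fell (46.7% called). P4ha2 read 0.44, 0.33 and 0.29 at oxygen 20 and 4.60, 4.34 and 4.57 at oxygen 1. Of 22 histone lysine demethylases 9 rose and 1 fell (45.5% called; median 0.26), led by Kdm3a, which read 0.90, 0.92 and 1.10 and then 3.85, 3.94 and 3.96. The groups of both genes were tight and far apart. Kdm4b rose by 2.16, Kdm5b by 2.02, Jmjd6 by 1.69 and Kdm6b by 1.49 on the log2 scale.

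Secreted factors were raised. Of 21 tested 13 rose and 3 fell (76.2% called; median 1.04). Vegfa, which attracts blood vessels, read -1.75, -1.77 and -1.40 at oxygen 20 and 2.77, 2.90 and 2.90 at oxygen 1, a 22.5-fold rise (limma adjusted p = 1.05e-12). Adm, the vasodilator adrenomedullin, rose 19.1-fold and Mif, a macrophage cytokine, 3.85-fold. Gdf15, a stress cytokine, went the other way, from 4.47, 4.48 and 4.34 to 2.71, 2.31 and 2.56, 3.75-fold lower. In the list of clotting and plasminogen activation 10 of 18 rose and 3 fell (72.2% called; median 0.82), with tissue factor F3 at 7.90-fold, 1 of its controls not well above background.

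Genes of cell division fell nearly as a whole. Of 51 mitosis genes 49 fell and none rose (96.1% called; median -1.51), and of 51 DNA replication genes 44 fell and none rose (86.3% called; median -1.26). Plk1, a mitotic kinase, read 1.46, 1.59 and 1.22 at oxygen 20 and -0.69, -0.99 and -0.38 at oxygen 1, 4.30-fold lower. Spc24 of the kinetochore was 5.23-fold lower, and the mitotic activator Cdc20 3.11-fold. Mcm2, a subunit of the replicative helicase, read 1.06, 1.05 and 1.35 and then -1.18, -1.29 and -0.90, 4.85-fold lower, and Uhrf1, which keeps DNA methylation through replication, was 5.08-fold lower. Replicate 3 at oxygen 1 was the highest of its group for Plk1, Mcm2 and Uhrf1, and without it the median of the replication list was -1.41. DNA repair and checkpoint genes gave 27 falls and 4 rises among 36 (86.1% called; median -0.97), among them Fanci and Clspn. Of 27 CDK inhibitors, G1 cyclins and E2F genes 12 fell and 5 rose (63.0% called). Cdkn1b, the inhibitor p27, rose 2.89-fold and Cdkn1c, the inhibitor p57, named after its values were seen, 5.96-fold, while Ccnd1, cyclin D1, fell 4.06-fold.

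**Figure D3:**
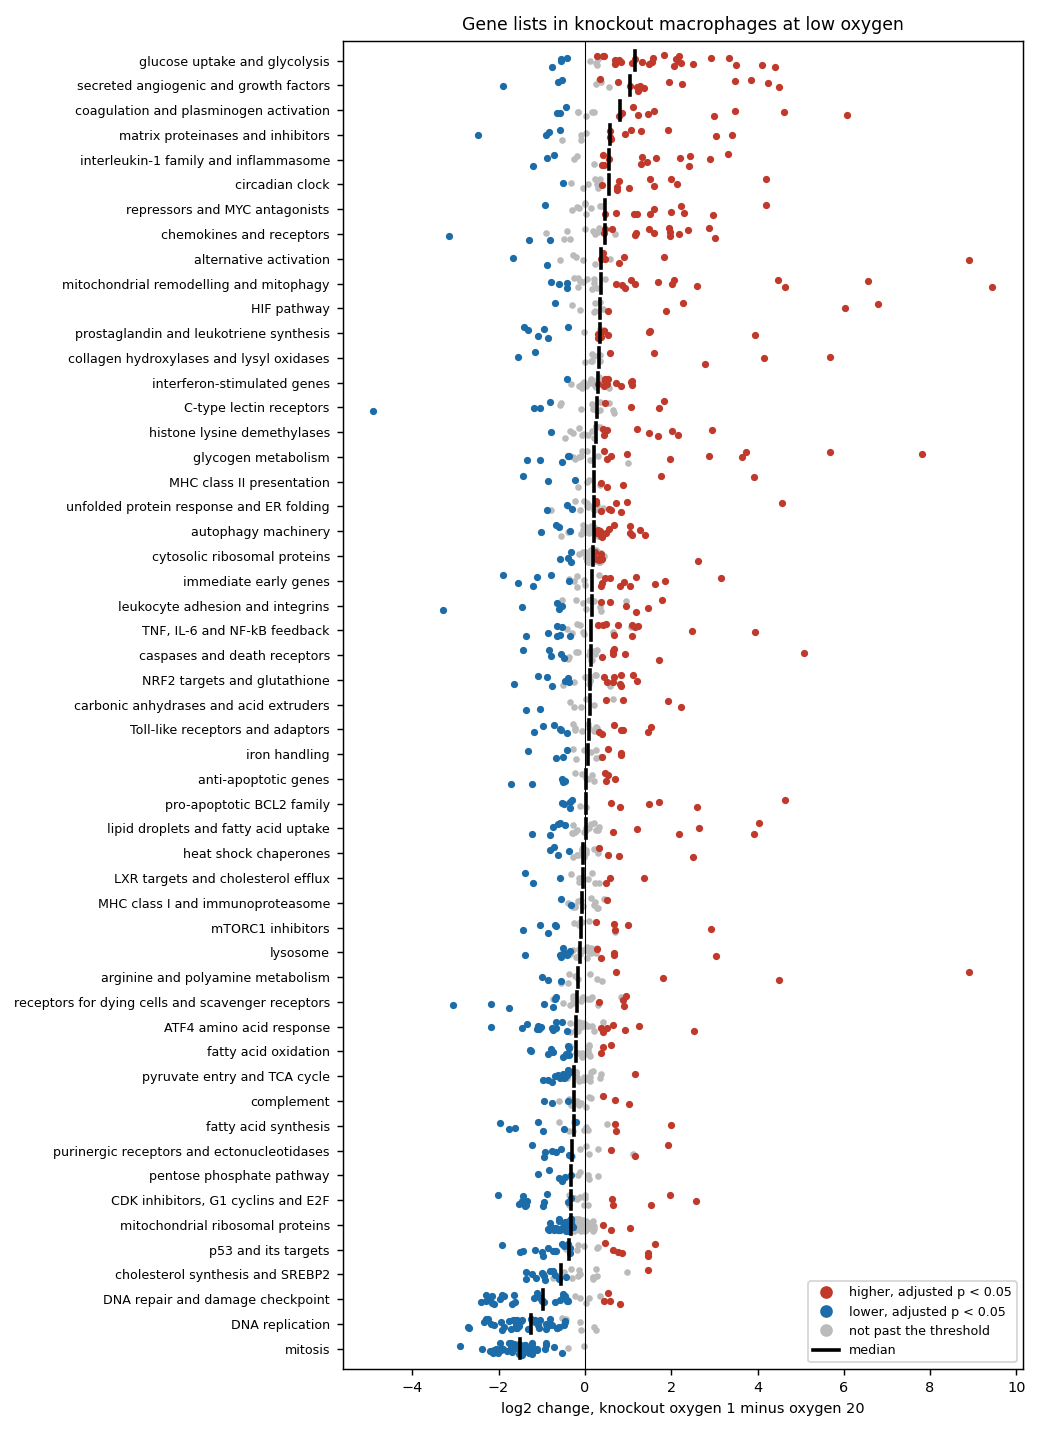
Log2 change in knockout cells for every tested member of each gene list, with the cell type marker lists left out. Lists are ordered by their median (black bar). Red members were higher and blue members lower at limma adjusted p under 0.05, and grey members did not pass. Glucose use has the highest median (1.17) and mitosis the lowest (-1.51); members whose control signal was below background, such as Arg1, are drawn at their fitted value.

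Lists of lipid genes also differed. Of 26 cholesterol synthesis genes 13 fell and 1 rose (53.8% called; median -0.55). Dhcr7, the last step of the pathway, fell 2.57-fold and Fdps 2.34-fold, and the riser was Insig2, which holds back the pathway, at 2.75-fold. In fatty acid synthesis 3 of 18 rose and 7 fell (55.6% called). The desaturase gene Scd2 read 2.44, 2.55 and 2.71 at oxygen 20 and 4.53, 4.73 and 4.40 at oxygen 1, a 3.96-fold rise, while Fads1 fell by 1.97 on the log2 scale. Hilpda, which blocks lipid breakdown, rose 15.1-fold, and Gpat3, an acyltransferase of fat storage, 16.5-fold, in a list of 27 lipid droplet genes with 6 rises and 6 falls (44.4% called; median 0.016).

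Stress pathways did not move as blocks. Of 35 ATF4 amino acid response genes 7 rose and 13 fell (57.1% called; median -0.20): Phgdh, the first step of serine synthesis, fell 4.52-fold while Mthfd1l of mitochondrial folate metabolism rose 5.74-fold, with 1 sample at oxygen 1 left out by a spot flag. The unfolded protein response gave 9 rises and 3 falls among 26 (46.2% called). Ddit4, which restrains mTORC1, read 1.41, 1.29 and 1.50 at oxygen 20 and 4.24, 4.39 and 4.30 at oxygen 1, a 7.52-fold rise, in a list of 16 with 5 rises and 5 falls (62.5% called). Autophagy genes gave 13 rises and 4 falls of 35 (48.6% called; median 0.20). Of 28 p53 targets 15 fell and 7 rose (78.6% called; median -0.38), and Gtse1, the member with the smallest adjusted p, is also a gene of the G2 and S phases. Pro-apoptotic BCL2 members gave 6 rises and 5 falls of 13 (84.6% called; median 0.019), and anti-apoptotic genes 4 and 5 of 15 (60.0% called; median 0.022). Birc5, or survivin, which also acts in mitosis, fell by 1.71 and Bcl2 by 1.23 on the log2 scale, while Xiap rose by 0.50.

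Transcriptional repressors and clock genes shared their leading riser. Bhlhe40 read -4.18, -3.61 and -4.34 at oxygen 20 and -0.19, 0.31 and 0.32 at oxygen 1, an 18.3-fold rise. Of 21 repressors and MYC antagonists 11 rose and 1 fell (57.1% called; median 0.48), and of 18 clock genes 10 rose and 1 fell (61.1% called; median 0.56); Bhlhe40, Bhlhe41, Nfil3 and Rora stand in both lists. Immediate early genes gave 11 rises and 6 falls of 24 (70.8% called), Ier3, a stress gene, rising 8.86-fold while the nuclear receptors Nr4a1 and Nr4a2 fell by 1.54 and 1.21 on the log2 scale; a dimmer probe of Nr4a2 gave -0.43 and did not pass.

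Interleukin-1 genes rose while Tnf fell. Of 19 members of the interleukin-1 and inflammasome list 13 rose and 3 fell (84.2% called; median 0.56). Il1b read -0.17, 0.15 and -0.32 at oxygen 20 and 3.03, 2.90 and 3.69 at oxygen 1, a 9.97-fold rise (limma adjusted p = 2.15e-07). The receptor Il1r1 rose 5.41-fold, the sensor Nlrp3 4.58-fold and pyrin, Mefv, 2.70-fold, whereas Pycard, the adaptor that joins sensors to caspase-1, fell 2.29-fold. Pycard was named as the lowest member of the list and not by the rule that chose the others. Tnf read 4.10, 4.24 and 4.14 and then 3.11, 2.82 and 2.45, 2.58-fold lower with no overlap. In the list of TNF, IL-6 and NF-kB feedback 11 of 26 rose and 7 fell (69.2% called; median 0.15), the feedback inhibitors Tnfaip3 and Socs3 by 1.10 and 1.09 on the log2 scale upward. Ptgs2, or cyclooxygenase-2, read -2.22, -2.20 and -2.56 and then 1.38, 1.40 and 2.06, a 15.4-fold rise, while the prostaglandin D synthase Hpgds fell 2.68-fold.

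Among 27 chemokines and receptors 14 rose and 3 fell (63.0% called; median 0.46). Ccr3, a receptor typical of eosinophils, read -2.42, -2.35 and -2.06 at oxygen 20 and 0.70, 0.72 and 0.77 at oxygen 1, an 8.04-fold rise. The receptor Cxcr4 rose 4.52-fold, the neutrophil chemokine Cxcl3 7.34-fold and Ccrl2 3.94-fold. Cxcl5, also a neutrophil chemokine, went from -2.92, -3.04 and -3.40 to -6.32, -6.24 and -6.24, 8.88-fold lower, with 1 sample at oxygen 1 not well above background. Neutrophil-attracting genes therefore moved in both directions.

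**Figure D4:**
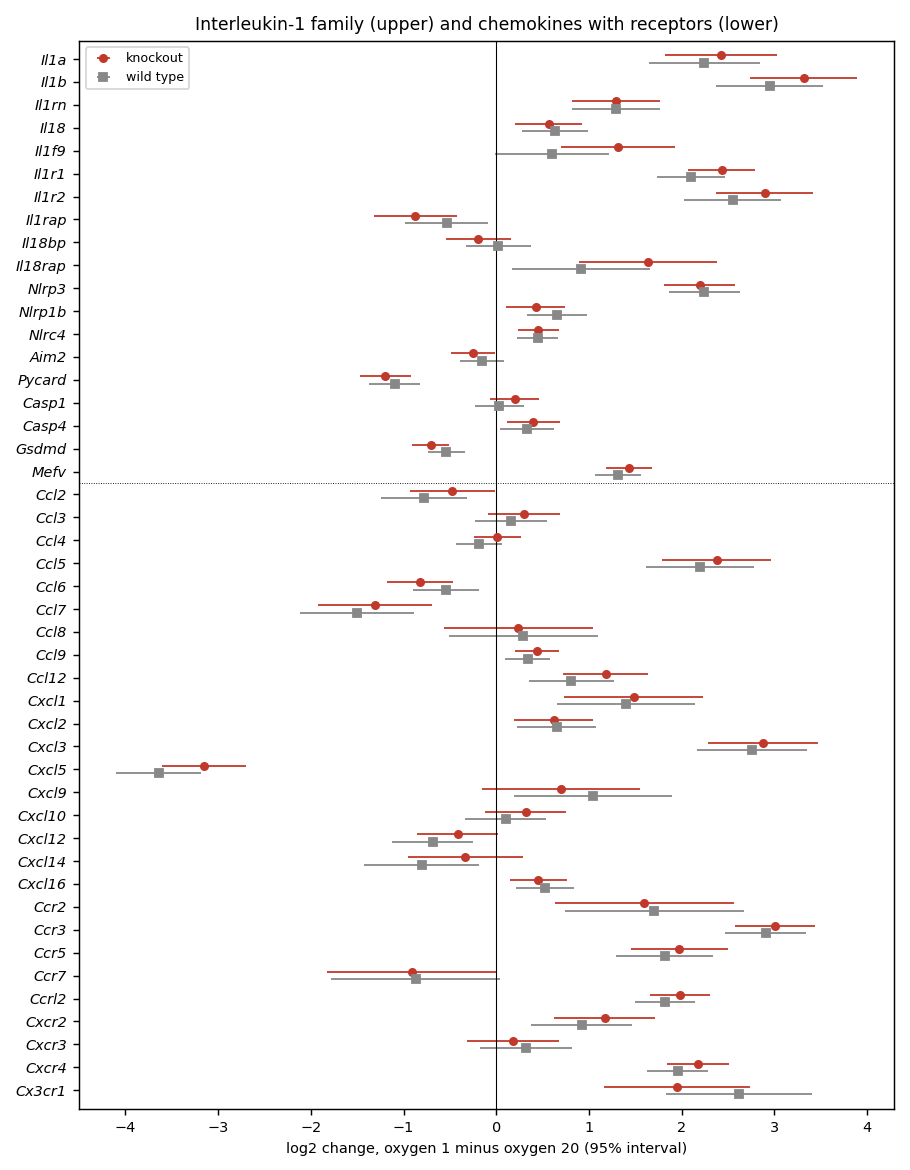
Log2 change at oxygen 1 with its 95% interval for every tested gene of the interleukin-1 list (above the dotted line) and of the chemokine list (below it), knockout as red circles and wild type as grey squares. Il1b (3.32) and Ccr3 (3.01) are the highest in the knockout and Cxcl5 (-3.15) is the lowest.

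Antigen presentation genes diverged within the class II family. Of 12 tested 5 rose and 3 fell (66.7% called; median 0.22), and this median moved between 0.055 and 0.354 with the processing. H2-Ab1, a beta chain, read -1.01, -1.15 and -0.82 at oxygen 20 and 3.23, 3.03 and 2.48 at oxygen 1, a 15.0-fold rise, and the invariant chain Cd74 rose 3.40-fold. H2-Aa, the alpha chain that pairs with H2-Ab1, read -5.41, -5.45 and -6.29 and then -6.94, -7.06 and -7.48 on a dim probe, not well above background in any sample at oxygen 1; its call was lost after normexp correction (adjusted p = 0.0620). Partner chains thus gave opposite signs, of which only that of H2-Ab1 rests on bright readings. Class I genes gave 1 rise and 2 falls of 16 (18.8% called). Interferon-stimulated genes gave 12 rises and 1 fall of 30 (43.3% called; median 0.30), led by Cmpk2 and Gbp3 at 1.09 and 1.06 on the log2 scale; a dimmer probe of Cmpk2 gave 0.43 and did not pass.

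Surface and matrix genes of macrophages were mixed. Mertk, a receptor for dying cells, read -0.43, -0.48 and -0.47 at oxygen 20 and -2.55, -2.80 and -2.59 at oxygen 1, 4.56-fold lower, in a list of 26 with 4 rises and 7 falls (42.3% called). In alternative activation 7 of 15 rose and 2 fell (60.0% called), Clec10a rising 3.58-fold beside Arg1 and Pparg falling 1.83-fold. Of 17 matrix proteinases and inhibitors 9 rose and 4 fell (76.5% called; median 0.58), with Mmp13 10.5-fold and the bone-resorbing protease Ctsk 8.20-fold higher and Mmp2 at least 2.68-fold lower. Csf1r, the receptor of the growth factor in the culture, rose 1.97-fold by its brightest probe, while another of its 3 probes gave a log2 change of 0.34 that did not pass.

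Summed levels of other cells' markers (signals divided by the 75th percentile and added up) moved with oxygen for 3 of 7 lists and overlapped between the groups for the other 4. Macrophage markers summed to 360 to 412 in the controls and 446 to 502 at oxygen 1. A sum weighs its brightest members most. Of the 15 macrophage markers tested, 5 rose, Csf1r and Fcgr3 among them, and 4 fell, Mertk and Lyz2 among them (60% called, median log2 change 0.019). Lymphocyte markers summed to 8.65 to 10.4 in the controls and 5.44 to 6.66 at oxygen 1; 4 of 14 were well above background in all 6 samples and 7 in none, Cd3d, Cd3g, Cd8a and Cd79a among them. Cd79b fell 1.97-fold and Ms4a1 was at least 3.27-fold lower, beside the fall of Spib. The sum for mast cells, basophils and eosinophils went from between 0.896 and 1.02 to between 2.98 and 4.17. This went beside the rise of Ccr3, which is itself on that list. In all samples 4 of 13 were well above background, and Epx, Fcer1a and Mcpt8 in none. Among the 6 tested, Ccr3 and Siglecf rose while Il4 and Kit fell (66.7% called, median log2 change -0.34). Kit did not pass in 10 of the 18 alternatives. Erythroid and megakaryocyte markers went from between 6.68 and 7.44 to between 15.7 and 32.9, with 3 of 10 well above background in all samples and Klf1, Itga2b and Alas2 among those in none. Of the 6 tested, Pf4, a platelet chemokine, rose 3.48-fold and Epor fell (33.3% called; median log2 change -0.25). Neutrophil markers summed to 60.2 to 86.9 in the controls and 73.0 to 81.1 at oxygen 1, with 10 of 14 well above background throughout and Prtn3 and Retnlg in no sample. Of the 12 tested, 4 fell, Ngp and Ltf among them, and 2 rose, Cxcr2 and Mmp8 (50% called; median log2 change -0.31). The sums were 124 to 137 and 124 to 149 for dendritic cells, 55.1 to 71.7 and 42.2 to 64.4 for osteoclasts and 4.04 to 5.09 and 3.25 to 4.51 for stromal and endothelial cells, in controls and at oxygen 1. The part of such cells in these results was not tested.

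Knockout and wild-type cells were then compared for the size of the response. Of the 20569 genes none passed the test of the difference between the 2 responses (0%; limma, smallest adjusted p 0.99986; 221 genes, 1.07%, at an unadjusted p under 0.05). In wild-type cells 8032 genes (39.0%) passed, and 6853 of the 8269 knockout genes also passed there in the same direction. Of the 2726 genes changed at least 2-fold in the knockout, 2714 had the same sign in wild-type cells. The median difference was 0.095 for those that rose and -0.079 for those that fell, genes chosen for their size in the knockout. The median 95% interval of a difference reached 0.49 to either side over all genes, and 0.61 over those changed at least 2-fold in the knockout.

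**Figure D5:**
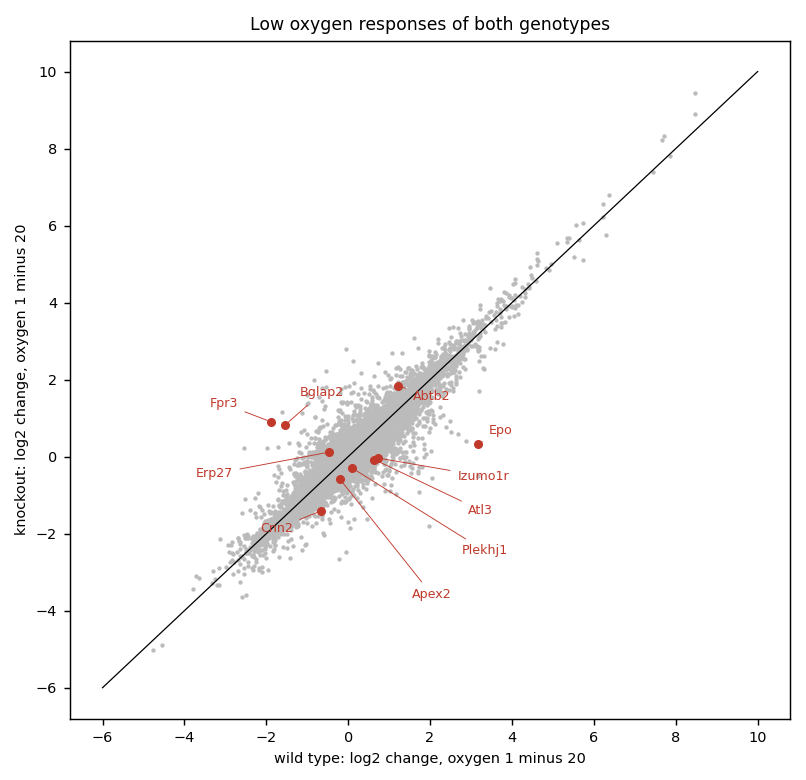
Log2 change at oxygen 1 in wild-type cells (horizontal) and in knockout cells (vertical) for the 20569 tested genes, with the line of equal change; the 10 named genes with the smallest p for the difference are red. Points follow the line, and Epo lies farthest to its right among the red ones.

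The genes with the smallest p-values for a difference are given by their values only. Epo, erythropoietin, a classic HIF target, read -7.96, -7.77 and -7.28 at oxygen 20 and -7.33, -8.56 and -6.15 at oxygen 1 in the knockout, where 1 sample was well above background. In wild-type cells it read -7.37, -8.38 and -7.29 and then -4.48, -5.03 and -4.02, with all 3 at oxygen 1 well above background and at least 3.85-fold higher. The groups at oxygen 1 did not overlap, but the difference of -2.85 (95% interval -4.30 to -1.41) did not pass (unadjusted p = 0.000798; adjusted p = 0.99986, limma). Abtb2 rose by 1.84 in the knockout and 1.22 in wild-type cells, and Cnn2, a calponin of the actin skeleton, fell by 1.40 and 0.65. A dimmer probe of Cnn2 fell by 1.58 in the knockout and 1.32 in wild-type cells, which lie closer together. Plekhj1, Atl3, Izumo1r, Apex2 and Erp27 had differences between -0.76 and 0.58, while Fpr3 and Bglap2, with differences of 2.80 and 2.36, were at or near background in both genotypes. Of the wild-type controls, 2 of 3 were well above background for Fpr3 and 1 of 3 for Bglap2. No wild-type sample at oxygen 1 was, for either gene.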

How the data were processed

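Spot intensities in the deposited scanner output were, per the file headers, background-subtracted and detrended by Agilent Feature Extraction 10.7.3.1. An alternative used the authors' value table, deposited as log2 values. The submitters' processing notes list limma but give no version. RNA was labelled from 200 ng a sample, per the labels' protocols. From these, log2 intensities minus each array's 75th percentile were computed here; spots marked non-uniform or as population outliers were dropped (0.117% missing), and repeat spots and arrays averaged. A probe entered when well above background in at least 3 of 18 samples with at least 2 values a group, and the brightest probe stood for each gene. Of 39429 probes 26049 (66.1%) received a RefSeq symbol, so genes keep their accession otherwise and are not named. Group means of 6 groups were fitted with limma 3.58.1 (R 4.3.3; 12 residual and 2.56 prior degrees of freedom), with two-sided p-values adjusted by Benjamini and Hochberg over 20569 genes. The code was tested on simulated data. Precision is limited by having 3 samples a group.

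This comparison and its members, the 61 lists and the tests were chosen with earlier results of these data known, though the labels alone assign the samples. Named genes were Egln3, the 12 largest measured rises and falls (groups apart, well above background throughout), the 6 largest each way by bound, up to 5 called members a list with the smallest adjusted p, any member of the glycolysis, glycogen and HIF lists, and 10 genes for the difference. Cdkn1c and Pycard stand outside this rule, and Pycard was not among the genes followed under the alternatives. Markers well above background in no sample and genes with opposite probes were also named outside it. Alternatives covered normalization, filter, probe rule, samples in the fit, repeat arrays, slide, replicate number, variance trend and leaving out each replicate.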

Additional observations from a re-analysis of the deposited data

How the results depend on the processing

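Under 18 alternatives the knockout response gave 6889 to 8535 called genes, and of the genes called in each, 6612 to 8132 were those called above. Of 336 genes followed, 263 kept their call under all 18, 38 kept it under the 17 in which they were tested (the strictest filter removed them) and 35 lost it under at least 1; none changed sign where tested. The difference between genotypes gave 0 genes under every alternative run. Quantile normalization gave 4201 higher and 4334 lower genes, and the values deposited for the series gave 4123 higher and 4205 lower, where the median change of all genes was -0.033 and -0.037 against 0.030. With the replicate number as a block 4569 genes were higher and 3915 lower, 8086 of them shared, and none of the 336 genes followed was lost. Deviations of same-numbered samples from their group means correlated at 0.065, 0.045 and -0.091. With 3 samples a group and array noise in the deviations, these values cannot show whether same-numbered samples share a mouse.

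List medians moved by more than the spread between replicates as follows; the cause was not tested. With normexp and quantile normalization they were 0.95 for glycolysis, 0.67 for secreted factors, -1.13 for replication, -1.21 for mitosis, -0.56 for DNA repair, 0.36 for interleukin-1, 0.24 for chemokines and 0.055 for class II presentation. Quantile normalization gave 0.92 for glycolysis and 0.067 for class II. The series value table gave 0.94 for glycolysis, 0.62 for interleukin-1, 0.39 for chemokines and 0.078 for class II. The mean of all probes gave 1.33 for glycolysis and -0.91 for DNA repair. Probes well above background in all 18 samples gave 1.12 for secreted factors, 0.44 for interleukin-1 and 0.35 for class II, and no filter gave 0.77, 0.45 and 0.34. With slide as a block the medians were 0.89 for secreted factors, 0.64 for interleukin-1, 0.57 for chemokines and -0.31 for mitochondrial ribosomal proteins.
Leaving out each knockout replicate in turn gave medians from 1.07 to 1.30 for glycolysis, from 0.92 to 1.11 for secreted factors, from -1.41 to -1.22 for replication, from -0.97 to -0.91 for DNA repair, from 0.49 to 0.71 for interleukin-1, from 0.43 to 0.60 for chemokines, from 0.15 to 0.34 for class II and from -0.34 to -0.27 for mitochondrial ribosomal proteins.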

Other observations

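Different probes of a gene can read different transcripts. Of 3533 genes with several tested probes, 32 had probes that were called in opposite directions at oxygen 1 in the knockout, and for 14 of these both changes were beyond 0.5 on the log2 scale. They were chosen after their values were seen. The probes of Mtfr2 gave -3.27 and 0.66, those of Rab15 -0.79 and 2.61, those of Ly6c1 -0.84 and 1.92, those of Ramp1 -0.62 and 1.63, those of Tet3 -0.58 and 1.23 and those of Csnk1d, a clock kinase, -0.51 and 1.14. Probe positions within these transcripts were not used here.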
